A study of Rattus norvegicus with 20 samples.

Results

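The genes described here make up the pathways by which a cell builds cholesterol and fatty acids, together with the sterol regulatory element binding proteins (SREBPs) that control them. The set holds 36 genes chosen by symbol and grouped by pathway step, of 17337 gene symbols in the count table. All 36 had an entry there, 35 under their own symbol and Scd, a stearoyl-CoA desaturase, as Scd1 through a RefSeq synonym. After a filter on low counts 27 of the 36 were tested, among 8320 tested genes in all. RNA came from AEC-I cells, which resemble alveolar type I epithelium. They are type II pneumocytes of Sprague-Dawley rats that were cultured for 4 days on silastic membranes coated with fibronectin. Sequencing was by QuantSeq, which reads 1 fragment near the 3' end of each polyadenylated transcript, in 20 libraries. Each library pooled 4 technical replicate monolayers of 1 animal, and the 5 animals of each group are numbered 1 to 5.

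The 4 groups were S_PI, NS_PI, S and NS. S_PI cells were treated for 18 h with 1 µM GSK2606414, an inhibitor of the endoplasmic reticulum stress kinase PERK, before 6 h of cyclic biaxial stretch (25% change in surface area, 15 cycles per min). NS_PI cells received the same inhibitor without stretch, for 18 h by the series text and 24 h by the treatment protocol. S cells received 0.01% DMSO for 18 h and then the same stretch, and NS cells received 0.01% DMSO for 24 h without stretch. No DMSO content is recorded for S_PI and NS_PI. S vs NS asked what stretch changes, S_PI vs NS_PI asked the same with PERK inhibited, and NS_PI vs NS, S_PI vs S and the difference between both stretch effects asked what the inhibitor changes.

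Cholesterol is made from acetyl-CoA through mevalonate and the isoprenoid squalene, which is then cyclized and trimmed to cholesterol in the endoplasmic reticulum. SREBP precursors sit in that membrane with the escort protein SCAP. When sterols are low, SCAP carries them to the Golgi for cleavage and the released fragment activates the enzyme genes; when sterols are high, INSIG proteins hold SCAP back. SREBP-2 acts mainly on the sterol enzymes and SREBP-1c mainly on fatty acid synthesis. In the lung, type II cells make the phospholipids and cholesterol of surfactant, and type I cells are thin cells that line most of the gas exchange surface.

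Libraries held 999209 to 3131541 gene counts, and levels are given as CPM, library-scaled read counts (normalized by the trimmed mean of M values method, TMM). A count of 3, taken as the detection floor, equals 1.07 to 3.04 CPM depending on the library, and covers counting error only. Of 12 type I markers 10 were tested, with Pdpn, Ager and Clic5 in every library, while Aqp5 was at 0 in 7 libraries and Rtkn2 in 10. Of 6 endothelial markers none was tested, and Cdh5 and Cldn5 were at 0 in all 20 libraries. Kdr was at 0 in 7 libraries, Tek in 11, Vwf in 12 and Pecam1 in 14. Summed, the 6 reached at most 4.05 CPM in a library. Libraries of 1 animal deviated together, and all 20 correlated best with another library of their own animal. Because these are bulk libraries, fewer cells of a type and less RNA per cell cannot be told apart.

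Genes of nearly every measured step of sterol synthesis were lower in stretched than in unstretched cells, with and without the inhibitor. Of the 15 tested sterol enzyme genes 13 fell in S vs NS and 15 fell in S_PI vs NS_PI, and none rose in either. Their median log2 change was -0.99 in S vs NS and -1.11 in S_PI vs NS_PI, where the median of all tested genes was -0.01 and -0.02. Of the 7 tested fatty acid genes, 1 fell and 1 rose in S vs NS, and 3 fell and 1 rose in S_PI vs NS_PI. Over all 27 tested members 15 fell and 1 rose in S vs NS, where 24.9% of all tested genes were called, 12.4% falling and 12.5% rising. In S_PI vs NS_PI 19 fell and 1 rose, where 30.5% of all tested genes were called, 15.3% falling and 15.2% rising. Calls are edgeR quasi-likelihood tests at an adjusted p below 0.05 over all tested genes, with the animal as a block.

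Summed over the 15 tested sterol enzymes, levels were 1189, 1349, 1302, 1069 and 1449 CPM in S libraries of animals 1 to 5, against 3064, 2802, 1997, 2139 and 2385 CPM in NS. With inhibitor the sums were 1426, 1282, 1165, 1222 and 1512 CPM in S_PI, against 2940, 2823, 2213, 2625 and 2824 CPM in NS_PI. In both comparisons every stretched library lay below every unstretched one. Within an animal the S sum was 38.8% (animal 1) to 65.2% (animal 3) of the NS sum, and the S_PI sum was 45.4% to 53.5% of the NS_PI sum. These sums rest mainly on the abundant enzymes. The sum from mevalonate to squalene (6 genes) and the sum from squalene to cholesterol (9 genes) separated the groups in the same way.

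**Figure D1:**
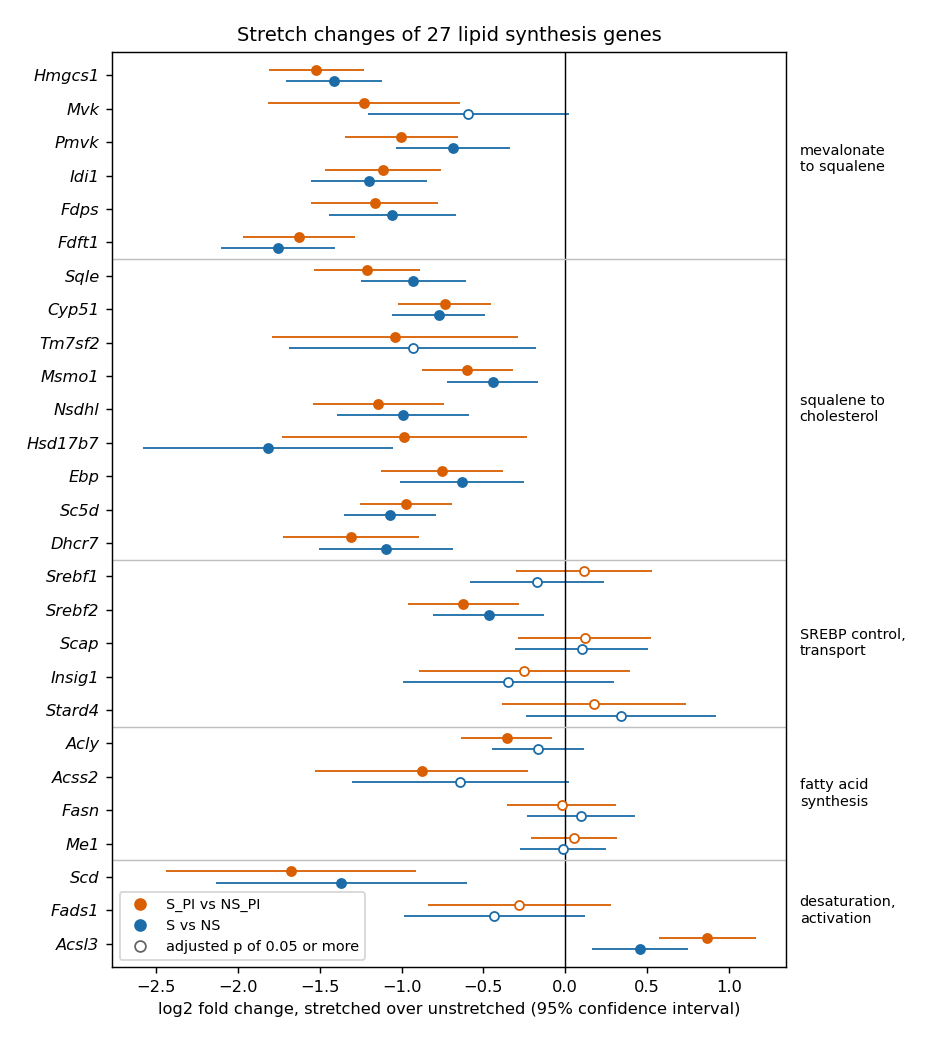
Fitted log2 fold changes (x axis, stretched over unstretched) of the 27 tested genes, ordered by pathway step, with 95% confidence intervals; orange marks S_PI vs NS_PI, blue marks S vs NS, and open circles an adjusted p of 0.05 or more. All 15 sterol enzymes lie left of 0 in both comparisons, while Srebf1, Scap, Fasn and Me1 lie near 0 and Acsl3 lies to the right.

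Of the 6 tested enzymes from acetyl-CoA to squalene 5 fell in S vs NS (median log2 change -1.13) and 6 in S_PI vs NS_PI (median -1.20). Hmgcs1 (ENSRNOG00000016552), the cytosolic HMG-CoA synthase at the entry of the pathway, had 108, 140.1, 134, 129.6 and 153 CPM in S, against 458, 391, 269, 304 and 359.7 CPM in NS. The highest S library was below the lowest NS library, and animal 1 had both the lowest S and the highest NS level. With inhibitor Hmgcs1 had 142, 149, 135, 162 and 198 CPM in S_PI, against 493, 502, 371, 439.8 and 446 CPM in NS_PI, again without overlap. Hmgcs1 was 2.66-fold lower in S than in NS (log2 change -1.41 ± 0.14 (SE), edgeR adjusted p = 1.22e-06). In S_PI it was 2.87-fold lower than in NS_PI (log2 change -1.52 ± 0.14, edgeR adjusted p = 2.99e-07).

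Fdft1 (ENSRNOG00000021314), squalene synthase, commits the pathway to sterols. It had 32.05, 39.8, 22.2, 22.3 and 38.5 CPM in S, against 133, 153, 74.7, 74.5 and 95.1 CPM in NS. Its levels in S_PI were 31.4, 34.6, 30.2, 36.4 and 41.4 CPM, against 104, 129.9, 96.1, 105 and 101 CPM in NS_PI. No stretched library reached an unstretched one in either comparison. Fdft1 was 3.37-fold lower in S than in NS and 3.09-fold lower in S_PI than in NS_PI, with log2 changes of -1.75 ± 0.17 and -1.63 ± 0.17 (edgeR adjusted p = 6.22e-07 and 9.4e-07).

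Idi1 (ENSRNOG00000016690), the isopentenyl diphosphate isomerase, had 151, 234, 224, 146 and 226 CPM in S, against 664, 477, 345, 404 and 426 CPM in NS. It had 278, 201, 175, 195 and 268 CPM in S_PI, against 636, 459, 362, 481 and 470.3 CPM in NS_PI. The groups did not overlap in either comparison, and animals 1 and 4 differed most in S vs NS. Its log2 changes were -1.20 ± 0.17 in S vs NS and -1.11 ± 0.17 in S_PI vs NS_PI (edgeR adjusted p = 6.58e-05 and 7.78e-05). Idi1 overlaps Wdr37 on the opposite strand in the RefSeq annotation, though its 3' end does not lie inside that gene.

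Fdps, farnesyl diphosphate synthase, averaged 69.1 ± 15.7 CPM in S and 144 ± 34.98 CPM in NS, and 67.6 ± 24.2 CPM in S_PI and 149.7 ± 29.8 CPM in NS_PI (SD, n = 5 each). Its log2 changes were -1.06 ± 0.19 and -1.16 ± 0.19. The groups did not overlap in S vs NS or in S_PI vs NS_PI, where animal 1 showed the smallest fall, -0.39 on the log2 scale. Pmvk, phosphomevalonate kinase, averaged 17.4 ± 3.21 CPM in S and 27.5 ± 2.70 CPM in NS (SD, n = 5 each). With inhibitor it averaged 17.2 ± 1.64 CPM in S_PI and 35.1 ± 8.08 CPM in NS_PI. Its log2 changes were -0.68 ± 0.17 and -1.003 ± 0.17, with no overlap in either comparison.

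Mvk, mevalonate kinase, was the 1 tested enzyme of these steps whose call differed between the comparisons. It had 6.51, 3.91, 4.31, 4.05 and 8.33 CPM in S, against 10.6, 10.8, 2.47, 6.45 and 9.72 CPM in NS. With inhibitor it had 4.56, 6.08, 3.49, 3.80 and 9.50 CPM in S_PI, against 12.04, 9.54, 10.5, 11.6 and 20.7 CPM in NS_PI. In S vs NS the groups overlapped, since animal 3 had 2.47 CPM in NS, and in S_PI vs NS_PI they did not. The log2 change was -0.59 ± 0.29 in S vs NS (edgeR adjusted p = 0.148) and -1.23 ± 0.28 in S_PI vs NS_PI (adjusted p = 0.00269). Without animal 2 the S vs NS change was -0.30 (adjusted p = 0.552), and without animal 3 it was -0.75 (adjusted p = 0.0972). The difference between both stretch effects, -0.64 ± 0.41, had a 95% confidence interval of -1.497 to 0.22 and an adjusted p of 0.984. Acat2, the cytosolic acetoacetyl-CoA thiolase, and Mvd, mevalonate diphosphate decarboxylase, had at most 5 and 2 counts in a library and were not tested.

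**Figure D2:**
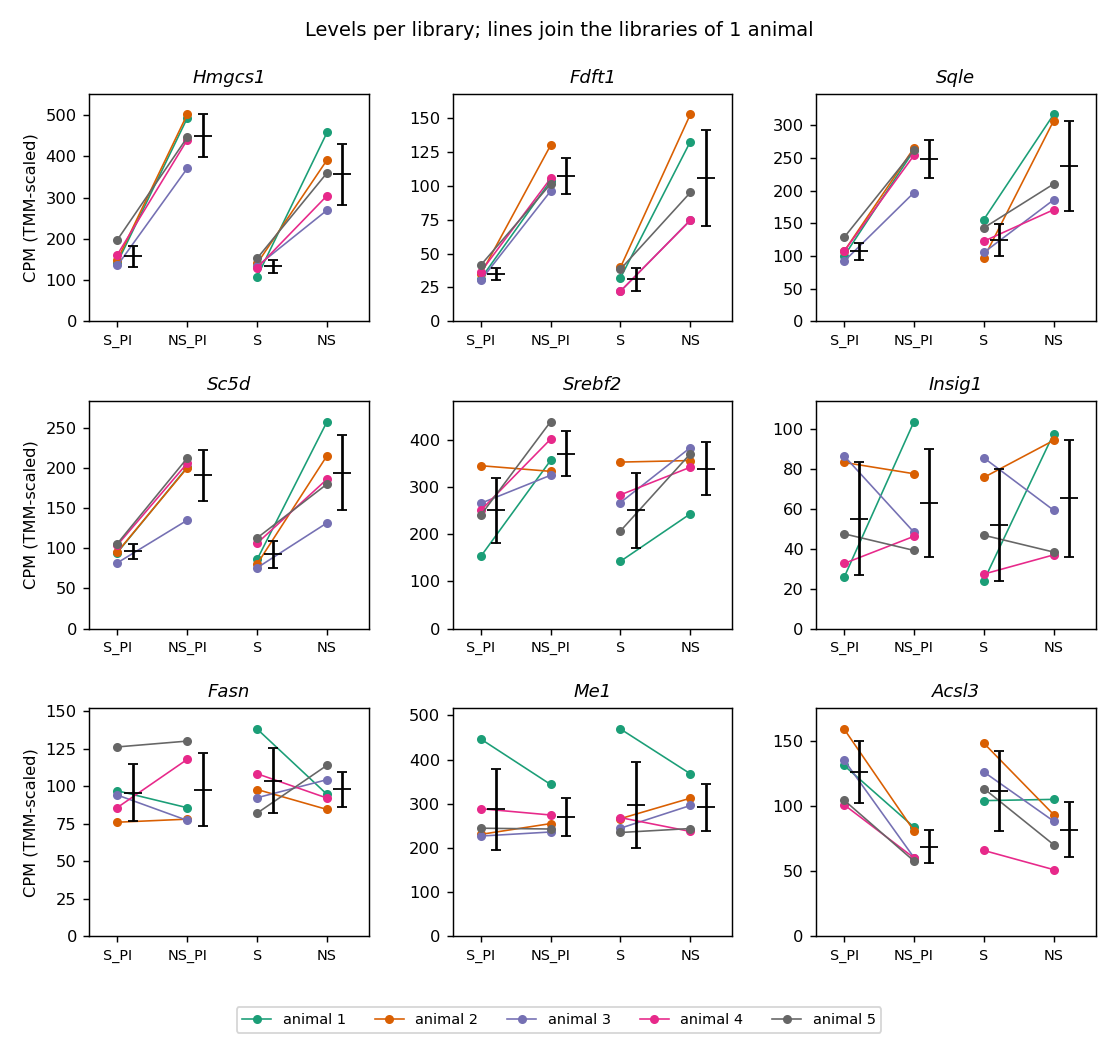
Levels of 9 genes in each library (y axes, TMM-scaled CPM, linear and starting at 0) in S_PI, NS_PI, S and NS; coloured lines join the libraries of 1 animal in each comparison, and the black bars give the group mean ± SD (n = 5). For Hmgcs1, Fdft1, Sqle and Sc5d every line rises to the unstretched side, for Acsl3 every line but that of animal 1 in S and NS falls, and for Insig1, Fasn and Me1 the lines cross.

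The enzymes that turn squalene into cholesterol fell as well, 8 of 9 tested in S vs NS (median log2 change -0.93) and 9 of 9 in S_PI vs NS_PI (median -0.98). Sqle (ENSRNOG00000009550), squalene monooxygenase, which starts this branch, had 156, 96.7, 105, 123 and 143 CPM in S, against 317, 307, 186, 171 and 210.1 CPM in NS. In S_PI it had 99.8, 107, 91.8, 107 and 128 CPM, against 262, 265, 197, 254 and 262 CPM in NS_PI. Neither pair of groups overlapped. Sqle was 1.90-fold lower in S than in NS and 2.32-fold lower in S_PI than in NS_PI (log2 changes -0.93 ± 0.16 and -1.21 ± 0.16, edgeR adjusted p = 0.000287 and 1.19e-05).

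Sc5d (ENSRNOG00000008305), the lathosterol desaturase, had 86.1, 80.4, 75.7, 106 and 113 CPM in S, against 257, 215, 132, 186 and 179.9 CPM in NS. Dhcr7, the last reductase of the Kandutsch-Russell route to cholesterol, had 11.5, 10.3, 7.39, 18.2 and 19.2 CPM in S, against 23.4, 26.5, 25.3, 27.6 and 35.1 CPM in NS. For both genes all 5 S libraries lay below all 5 NS libraries. The log2 changes were -1.07 ± 0.14 for Sc5d and -1.09 ± 0.20 for Dhcr7 in S vs NS (edgeR adjusted p = 2e-05 and 0.000549). In S_PI vs NS_PI they were -0.97 ± 0.13 and -1.31 ± 0.20, with Dhcr7 at 7.41 to 15.9 CPM in S_PI and 20.7 to 48.1 CPM in NS_PI.

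Cyp51, the lanosterol 14-alpha-demethylase, averaged 229 ± 32.5 CPM in S and 395 ± 63.9 CPM in NS, and 248 ± 23.6 CPM in S_PI and 415 ± 70.6 CPM in NS_PI (SD, n = 5 each). Its groups did not overlap, and its log2 changes were -0.77 ± 0.14 and -0.74 ± 0.14. Nsdhl, a sterol dehydrogenase that acts with Msmo1 in removing the methyl groups at carbon 4, averaged 29.9 ± 11.2 CPM in S and 57.3 ± 14.7 CPM in NS. With inhibitor it averaged 29.3 ± 4.64 CPM in S_PI and 65.5 ± 15.99 CPM in NS_PI (SD, n = 5 each). Its log2 changes were -0.99 ± 0.19 and -1.14 ± 0.19, and its groups overlapped in S vs NS, where animal 3 had 37.1 CPM in NS.

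Msmo1, the sterol 4-methyl oxidase, and Ebp, the sterol isomerase, had smaller fitted changes than the median sterol enzyme. Msmo1 averaged 284 ± 65.95 CPM in S and 382 ± 44.2 CPM in NS (SD, n = 5 each), a log2 change of -0.44 ± 0.13 (edgeR adjusted p = 0.02). This call was lost without animal 2, 4 or 5 (adjusted p = 0.0531, 0.117 and 0.118). In S_PI vs NS_PI the Msmo1 change was -0.60 ± 0.13, and the groups, 203 to 323 CPM in S_PI and 346 to 474 CPM in NS_PI, did not overlap. Ebp had log2 changes of -0.63 ± 0.18 in S vs NS and -0.75 ± 0.18 in S_PI vs NS_PI, and its groups overlapped in both. The Ebp call in S vs NS was lost without animal 1, 2 or 4 (adjusted p = 0.0727, 0.0591 and 0.0547).

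Tm7sf2, a sterol C14 reductase, and Hsd17b7, a 3-ketosteroid reductase of the same demethylation complex as Nsdhl, were low. Hsd17b7 had 3.004, 1.42, 1.85, 1.01 and 2.56 CPM in S, against 11.9, 5.89, 3.09, 8.80 and 6.48 CPM in NS. These groups did not overlap, but all 5 S libraries were at or under the highest detection floor of 3.04 CPM, so the log2 change of -1.82 ± 0.37 (edgeR adjusted p = 0.0014) depends on the fit. In S_PI vs NS_PI the Hsd17b7 change was -0.98 ± 0.36 (adjusted p = 0.0431), it was lower in 4 of 5 animals, and the call was lost without animal 1, 2, 3 or 4 (adjusted p of 0.0763 to 0.194). Tm7sf2 averaged 5.73 ± 3.56 CPM in S and 10.6 ± 5.85 CPM in NS (SD, n = 5 each), with -0.93 ± 0.36 on the log2 scale (adjusted p = 0.0646), and it ranged between -1.19 without animal 4 (0.0407) and -0.66 without animal 5 (0.318). With inhibitor its change was -1.04 ± 0.36 (adjusted p = 0.0339), a call lost without animal 1, 2, 4 or 5 (adjusted p of 0.0568 to 0.116). Lss, lanosterol synthase, had 0 to 3 counts per library and was not tested.

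All 15 sterol enzymes had a fitted change below 0 in both comparisons, and 13 were lower in all 5 animals in S vs NS and 13 in S_PI vs NS_PI. The share of all tested genes lower in all 5 animals was not determined, so these counts of 13 have no reference. Groups did not overlap for 10 of the 15 in S vs NS and 12 of the 15 in S_PI vs NS_PI, where 3.89% and 6.59% of all tested genes were lower without overlap. By animal, the median difference of the 15 (log2 of CPM plus 0.5, S minus NS) was -1.45, -1.32, -0.76, -0.82 and -0.67 in animals 1 to 5. With inhibitor the medians (S_PI minus NS_PI) were -1.19, -1.06, -0.86, -1.24 and -1.07. Animals 1 and 2 thus showed the larger falls without inhibitor, and the animals lay closer together with it. The S_PI vs NS_PI falls included all 15 members that fell in S vs NS (100% of the 15, 78.9% of the 19). The other 4 were Mvk, Tm7sf2, Acly and Acss2, and for none of these did the difference between both stretch effects pass the test. How many of all tested genes fell in both comparisons was not determined, so this overlap has no reference. Both comparisons also come from the same 5 animals and a shared fit.

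**Figure D3:**
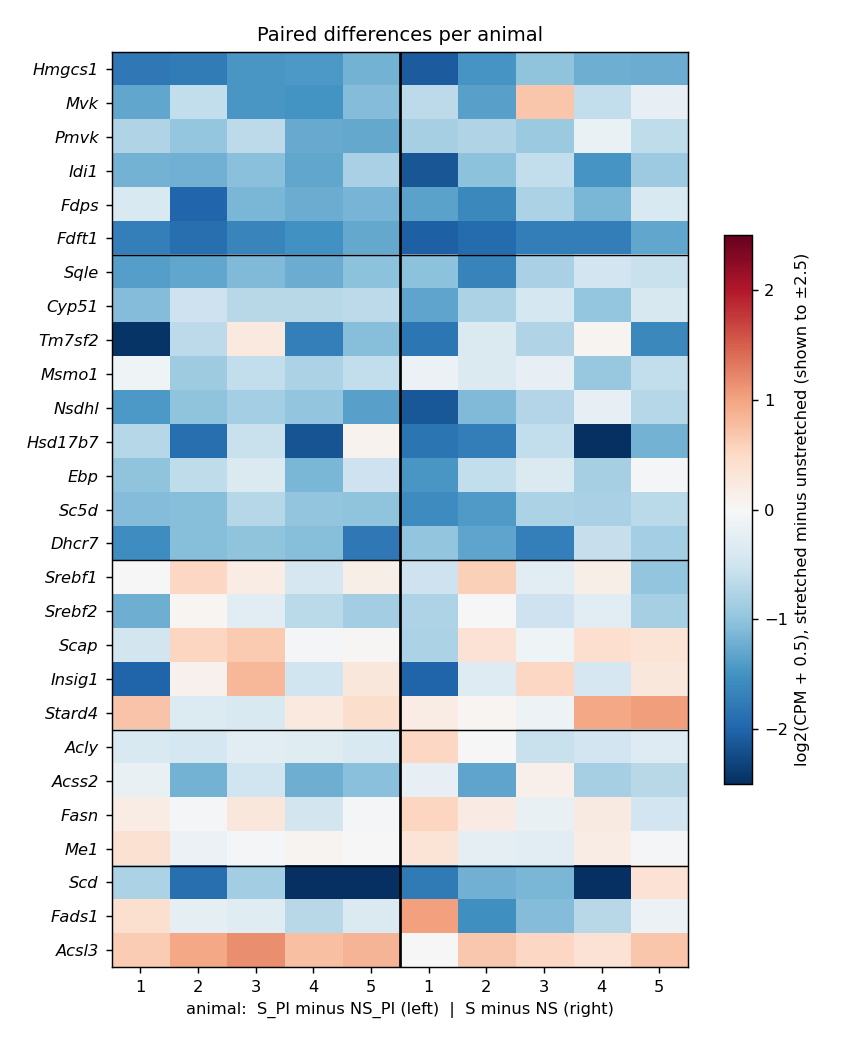
Differences per animal (columns, animals 1 to 5; left block S_PI minus NS_PI, right block S minus NS) in log2 of CPM plus 0.5 for the 27 tested genes in pathway order; blue is lower and red higher in the stretched library, and colours stop at ±2.5. The sterol enzyme rows are blue in nearly every animal, whereas Srebf1, Scap, Insig1, Stard4, Fasn and Me1 change sign between animals.

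Several alternatives in the fit moved the S vs NS calls. With only S and NS in the fit 10 members fell and none rose, and without the animal block 11 fell and none rose. In every setting tried 9 of the 15 falls in S vs NS and 13 of the 19 in S_PI vs NS_PI were called again. Those not called in every setting were Pmvk, Msmo1, Hsd17b7, Ebp, Srebf2 and Scd in S vs NS, and Tm7sf2, Hsd17b7, Ebp, Srebf2, Acly and Acss2 in S_PI vs NS_PI. With only the groups compared in the fit, Hsd17b7 in both comparisons and Acss2 in S_PI vs NS_PI did not pass the filter on low counts and were not tested.

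Markers of other cells also moved with stretch. Of 13 tested macrophage and leukocyte markers 5 rose in S vs NS and 6 in S_PI vs NS_PI, and none fell, where 12.5% and 15.2% of all tested genes rose and 12.4% and 15.3% fell. The sum of all 15 listed markers was 2160 to 13906 CPM in S, against 1601 to 10539 CPM in NS. It was higher in S in 5 of 5 animals. With inhibitor it was 2632 to 13020 CPM in S_PI, against 1618 to 10003 CPM in NS_PI, higher in S_PI in 4 of 5. This sum rests mainly on Lyz2 (mean 4899 CPM), which passed in neither comparison (edgeR adjusted p = 0.475 and 0.07). Marco, an alveolar macrophage receptor, was at 0 in 19 of 20 libraries, while all 13 tested markers were above 0 in every library. The level of 1 gene does not show whether alveolar macrophages were present. Of 10 tested type I markers 4 fell in S vs NS, and 6 fell and 1 rose in S_PI vs NS_PI. The sum of all 12 listed type I markers was 1231 to 6902 CPM in S, against 1993 to 7973 CPM in NS. With inhibitor it was 1143 to 6378 CPM in S_PI, against 2093 to 7661 CPM in NS_PI. It was lower after stretch in 4 of 5 animals in each comparison. Of 9 tested type II markers 1 rose in each comparison and none fell. Fibroblast and smooth muscle markers (7 tested) had 1 rise in S vs NS and 3 rises and 1 fall in S_PI vs NS_PI. The sum of all 10 listed, mainly Col1a1 (mean 5467 CPM), was 3982 to 12451 CPM in S, against 3258 to 7515 CPM in NS. With inhibitor it was 4012 to 14301 CPM in S_PI, against 3253 to 10654 CPM in NS_PI. Of 3 tested markers of adipocytes 1 fell in S vs NS and none passed in S_PI vs NS_PI. The part of these cell types in the lipid gene results was not tested.

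Of 5 tested genes of SREBP control and sterol transport, Srebf2 fell in both comparisons and no other passed. This share was below the 24.9% and 30.5% of all tested genes called in S vs NS and S_PI vs NS_PI. Srebf2 (ENSRNOG00000007400), which encodes SREBP-2, had 143, 353, 267, 283 and 207 CPM in S, against 243, 356, 384, 342 and 371 CPM in NS. With inhibitor it had 153, 345, 265, 251 and 240.3 CPM in S_PI, against 356, 333, 325, 401 and 438 CPM in NS_PI. The groups overlapped in both comparisons, and animal 2 hardly differed between its libraries. The log2 changes were -0.47 ± 0.16 (edgeR adjusted p = 0.0391) and -0.62 ± 0.16 (adjusted p = 0.0066). The S vs NS call was lost without animal 1, 3, 4 or 5, with adjusted p of 0.0705 to 0.202. Mir33 lies within Srebf2 in the RefSeq annotation, and its level was not analysed here.

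Srebf1, which encodes the SREBP-1 isoforms, averaged 29.96 ± 13.03 CPM in S and 32.1 ± 7.40 CPM in NS, and 29.8 ± 11.9 CPM in S_PI and 27.04 ± 6.34 CPM in NS_PI (SD, n = 5 each). Its log2 changes were -0.17 ± 0.20 and 0.12 ± 0.20, with 95% confidence intervals of -0.58 to 0.24 and -0.30 to 0.53. Its 3' end lies inside Rai1 in the RefSeq annotation, and the strand setting of the counting is not given in the sources used here, so counts of the pair may be mixed. Scap, the escort of the SREBPs, had log2 changes of 0.10 ± 0.19 and 0.12 ± 0.20 (intervals -0.30 to 0.50 and -0.29 to 0.52). Stard4, a soluble carrier of cholesterol, had 0.34 ± 0.28 and 0.18 ± 0.27. None of these 3 passed the test in either comparison, and intervals of this width do not show that the levels were equal.

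Insig1 (ENSRNOG00000006859), which retains SCAP when sterols are high and is itself an SREBP target, depended on the animal. It had 24.03, 75.8, 85.6, 27.3 and 46.8 CPM in S, against 97.8, 94.3, 59.3, 36.96 and 38.4 CPM in NS. It had 25.7, 83.3, 86.6, 32.6 and 47.5 CPM in S_PI, against 104, 77.6, 48.3, 46.3 and 39.2 CPM in NS_PI. The log2 difference was -2.002 (S minus NS) and -1.994 (S_PI minus NS_PI) in animal 1, and 0.53 and 0.84 in animal 3. The fitted log2 changes were -0.35 ± 0.31 (edgeR adjusted p = 0.438) and -0.25 ± 0.31 (adjusted p = 0.569). Without animal 1 they were 0.06 and 0.19. Insig2, its paralog, had 0 or 1 count per library and was not tested.

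Of 4 tested genes that supply acetyl-CoA and NADPH or build the fatty acid chain, none passed in S vs NS and Acly and Acss2 fell in S_PI vs NS_PI. Over all tested genes 24.9% and 30.5% were called. Fasn (ENSRNOG00000045636), the fatty acid synthase, had 138, 97.8, 92.3, 108 and 82.1 CPM in S, against 94.5, 84.5, 104, 92.1 and 114 CPM in NS. In S_PI it had 96.95, 75.97, 94.1, 85.8 and 126 CPM, against 85.6, 78.01, 77.2, 118 and 130.1 CPM in NS_PI. The groups overlapped broadly, and log2 changes were 0.10 ± 0.16 and -0.02 ± 0.16 with 95% confidence intervals of -0.24 to 0.43 and -0.36 to 0.31. Both intervals exclude a fall as large as the median of the sterol enzymes. Me1, the malic enzyme that makes NADPH, had 469, 266, 244, 268 and 235 CPM in S, against 368, 312, 296, 237 and 244 CPM in NS. Its highest levels were in animal 1 in all 4 groups, and its log2 changes were -0.01 ± 0.13 and 0.06 ± 0.13 (intervals -0.28 to 0.25 and -0.21 to 0.32).

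Acly, ATP citrate lyase, averaged 178 ± 24.4 CPM in S and 205 ± 55.6 CPM in NS (SD, n = 5 each), a log2 change of -0.16 ± 0.14 (edgeR adjusted p = 0.395). Leaving out each animal gave -0.33 without animal 1 (adjusted p = 0.0487) to -0.04 without animal 3 (adjusted p = 0.880). With inhibitor it averaged 183 ± 37.95 CPM in S_PI and 233 ± 47.9 CPM in NS_PI, a change of -0.36 ± 0.13 with an adjusted p of 0.0486 that was lost without animal 2, 3, 4 or 5 (0.0953 to 0.146). Acss2, which makes acetyl-CoA from acetate, averaged 4.48 ± 1.33 CPM in S and 6.79 ± 0.947 CPM in NS (SD, n = 5 each), a change of -0.64 ± 0.32 (adjusted p = 0.147). Its change in S_PI vs NS_PI was -0.88 ± 0.31 (adjusted p = 0.0385), lower in 5 of 5 animals, and was lost without animal 2, 3, 4 or 5 (0.0675 to 0.137). Acaca, the acetyl-CoA carboxylase that commits acetyl-CoA to fatty acids, had 0 to 11 counts per library and was not tested.

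Among genes that modify and activate fatty acids, Scd fell and Acsl3 rose. Scd (ENSRNOG00000013552), which introduces the double bond of oleate, had 5.01, 3.56, 3.08, 1.01 and 6.41 CPM in S, against 18.4, 8.84, 7.41, 13.5 and 4.86 CPM in NS. In S_PI it had 9.70, 2.43, 3.49, 1.52 and 2.04 CPM, against 17.1, 10.4, 6.82, 12.95 and 14.8 CPM in NS_PI. Scd was under the detection floor of its own library in S animal 4 (3.04 CPM) and S_PI animal 4 (2.28 CPM). It was at the floor in S_PI animal 5 (2.04 CPM). The groups overlapped in both comparisons, and animal 5 was higher in S than in NS. The log2 changes were -1.37 ± 0.37 (edgeR adjusted p = 0.0104) and -1.67 ± 0.37 (adjusted p = 0.00189). Scd and its close paralog Scd2 could share reads, so the split between them is uncertain. Scd2, counted below among further genes of fatty acid synthesis, also fell in both comparisons. It averaged 202 ± 40.6 CPM in S and 285 ± 68.2 CPM in NS (SD, n = 5 each). With inhibitor it averaged 208 ± 38.2 CPM in S_PI and 297 ± 50.2 CPM in NS_PI. Its log2 changes were -0.49 ± 0.13 (edgeR adjusted p = 0.00875) and -0.52 ± 0.13 (adjusted p = 0.00465). Fads1, the delta-5 desaturase, had changes of -0.43 ± 0.27 and -0.28 ± 0.27 and did not pass. The S vs NS change of Fads1 depended on the animals, at -0.78 without animal 1 (edgeR adjusted p = 0.0202) and -0.12 without animal 2 (adjusted p = 0.801).

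Acsl3 (ENSRNOG00000014718), an acyl-CoA synthetase of the endoplasmic reticulum and lipid droplets, was the 1 member that rose. It had 104, 148, 126, 65.8 and 113 CPM in S, against 105, 93.3, 88.3, 51.04 and 70.2 CPM in NS. With inhibitor it had 131, 159, 135, 101 and 105 CPM in S_PI, against 83.8, 80.9, 60.4, 60.1 and 57.7 CPM in NS_PI. In S it was higher than in NS in 4 of 5 animals with overlapping groups (3.45% of all tested genes were higher without overlap), while in S_PI it was higher in 5 of 5 without overlap, where 7.18% of all tested genes were higher without overlap. The log2 changes were 0.46 ± 0.14 (edgeR adjusted p = 0.0229) and 0.87 ± 0.14 (adjusted p = 0.000141). The rise in S vs NS was lost without animal 2, 3 or 5 (adjusted p = 0.0954, 0.0633 and 0.0893). Elovl6 had no count in any library, Elovl5 had 0 to 3, Fads2 0 to 6 and Lpin1 0 to 7, so these elongases, the delta-6 desaturase and the phosphatidate phosphatase were not tested.

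Promoters of 29 of the 36 genes were in the RefSeq promoter table (build GRCr8), as 250 bases before and 50 bases after the start of the gene. Pmvk, Fdft1, Sqle, Stard4, Acaca, Fasn and Elovl6 had none there. Published promoters of sterol enzyme genes often hold an SREBP site beside a CCAAT box, which binds the factor NF-Y, and GC boxes. The letters CCAAT were searched on both strands, as was CACNCCA, a core of the sterol regulatory element in which N is any base. The promoters below are shown to set 3 enzyme genes that fell (Hmgcs1, Idi1 and Msmo1) and the regulator that fell (Srebf2) beside Me1, which did not pass, and Acsl3, which rose. Capitals mark CCAAT or CACNCCA, or their reverse complements, read 5′ to 3′ on the strand of the gene.
Hmgcs1 (chr2:53382054-53382353, plus strand): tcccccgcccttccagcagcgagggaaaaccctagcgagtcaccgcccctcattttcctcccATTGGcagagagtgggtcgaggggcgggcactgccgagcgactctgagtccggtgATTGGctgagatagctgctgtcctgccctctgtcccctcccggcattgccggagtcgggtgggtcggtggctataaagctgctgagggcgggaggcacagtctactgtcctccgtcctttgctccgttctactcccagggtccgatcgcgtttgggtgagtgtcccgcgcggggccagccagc
Idi1 (chr17:66547475-66547774, minus strand): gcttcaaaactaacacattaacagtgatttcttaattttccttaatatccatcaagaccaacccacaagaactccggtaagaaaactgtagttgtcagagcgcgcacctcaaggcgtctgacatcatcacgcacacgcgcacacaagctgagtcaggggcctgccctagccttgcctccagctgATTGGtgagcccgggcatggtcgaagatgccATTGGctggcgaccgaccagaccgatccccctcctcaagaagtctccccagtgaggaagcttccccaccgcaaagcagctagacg
Msmo1 (chr16:29746863-29747162, plus strand): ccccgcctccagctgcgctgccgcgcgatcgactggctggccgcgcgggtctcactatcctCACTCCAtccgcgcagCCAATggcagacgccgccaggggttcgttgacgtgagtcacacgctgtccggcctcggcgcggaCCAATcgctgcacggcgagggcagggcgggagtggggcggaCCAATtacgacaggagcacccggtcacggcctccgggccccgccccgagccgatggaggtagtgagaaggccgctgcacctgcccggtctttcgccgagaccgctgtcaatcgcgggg
Srebf2 (chr7:115543057-115543356, plus strand): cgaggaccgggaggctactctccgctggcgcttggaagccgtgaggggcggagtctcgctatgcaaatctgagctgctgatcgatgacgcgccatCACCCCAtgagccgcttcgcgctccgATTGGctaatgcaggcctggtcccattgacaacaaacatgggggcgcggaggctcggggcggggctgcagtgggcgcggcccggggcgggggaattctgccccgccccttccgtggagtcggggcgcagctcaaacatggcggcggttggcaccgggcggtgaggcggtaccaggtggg
Me1 (chr8:96540195-96540494, minus strand): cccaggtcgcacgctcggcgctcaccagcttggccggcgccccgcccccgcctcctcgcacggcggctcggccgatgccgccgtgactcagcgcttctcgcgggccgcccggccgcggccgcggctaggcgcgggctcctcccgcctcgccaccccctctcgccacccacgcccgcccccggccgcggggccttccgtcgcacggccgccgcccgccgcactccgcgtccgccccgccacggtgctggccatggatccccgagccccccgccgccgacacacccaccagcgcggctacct
Acsl3 (chr9:87563351-87563650, plus strand): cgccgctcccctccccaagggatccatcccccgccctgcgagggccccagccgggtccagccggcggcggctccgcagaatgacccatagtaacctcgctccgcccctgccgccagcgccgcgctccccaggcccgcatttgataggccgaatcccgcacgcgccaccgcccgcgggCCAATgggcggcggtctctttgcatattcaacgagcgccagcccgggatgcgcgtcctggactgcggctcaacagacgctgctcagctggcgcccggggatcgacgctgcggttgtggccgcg

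Hmgcs1 and Idi1 each had 2 CCAAT matches in these windows, Msmo1 had 3 and a CACNCCA, Srebf2 had 1 of each, Acsl3 had 1 CCAAT and Me1 had neither. The promoters shown were chosen by name, and other members went the other way. Cyp51 and Dhcr7, which fell in both stretch comparisons, had no CCAAT. Srebf1, Fads1 and Insig1, which passed in neither, each had CCAAT. The 15 matched sterol enzyme promoters are not those of the 15 tested enzymes. They include the untested Acat2, Mvd and Lss and lack Pmvk, Fdft1 and Sqle. The 9 matched fatty acid gene promoters likewise include the untested Elovl5, Fads2 and Lpin1 and lack Fasn. CCAAT was found in 12 of these 15 sterol enzyme promoters (80%) and 6 of these 9 fatty acid gene promoters (66.7%). It was in 37.9% of 6819 promoters of tested genes and 37.7% of all 27457. At least 2 copies were in 10 of the 15 sterol enzyme promoters (66.7%) and 1 of the 9 fatty acid gene promoters (11.1%), beside 14.0% of tested genes. CACNCCA was in 4 of the 15 sterol enzyme promoters (26.7%) and 16.2% of tested genes. The longer TCACNCCAC, which contains CACNCCA, was in none of the 29 and in 1.14% of tested genes. GGGCGG, the GC box bound by Sp1, was in 13 of the 15 (86.7%) and 65.3% of tested genes. These matches describe letters in a short window and were not tested.

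No member passed a test of the inhibitor. In NS_PI vs NS, in S_PI vs S and in the difference between both stretch effects, edgeR called 0 of 27 members and 0% of all 8320 tested genes. DESeq2 also called 0 members in all of these, and 4, 0 and 0 genes over all tested. At an unadjusted p below 0.05 there were 3 members in NS_PI vs NS and none in the others, beside 455, 340 and 345 of all tested genes. The 3 were Hmgcs1, Mvk and Pmvk, all enzymes of the mevalonate steps with a higher mean in NS_PI than in NS. Hmgcs1 averaged 450.1 ± 52.2 CPM in NS_PI and 356 ± 73.7 CPM in NS (SD, n = 5 each), with a log2 change of 0.34 ± 0.14 and an edgeR adjusted p of 0.868.

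Among members of at least 10 CPM, the others with the largest values in NS_PI vs NS were Stard4 (0.34 ± 0.28) and Pmvk (0.33 ± 0.16). In S_PI vs S they were Hmgcs1 (0.24 ± 0.14), Sqle (-0.21 ± 0.16) and Acsl3 (0.19 ± 0.14). The S_PI vs NS_PI change minus the S vs NS change was 0.41 ± 0.20 for Acsl3 (95% confidence interval -0.003 to 0.83), -0.32 ± 0.24 for Pmvk and 0.29 ± 0.28 for Srebf1. None passed, with edgeR adjusted p of 0.984 for each difference. For the sterol enzymes the interval of this difference reached 0.50 to each side at the median, so the lack of a call does not show that the stretch effects were alike.

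The SREBP proteases Mbtps1 and Mbtps2 were not tested. Of 4 tested genes of sterol-regulated protein degradation (Rnf139, Faf2, Erlin1 and Erlin2), 2 rose in both comparisons and none fell. Over all tested genes 12.5% rose in S vs NS and 15.2% in S_PI vs NS_PI. Those that rose were Rnf139, a ubiquitin ligase of the endoplasmic reticulum (0.55 ± 0.17 in S vs NS, 0.67 ± 0.17 in S_PI vs NS_PI), and Faf2, a factor of the same degradation pathway (0.51 ± 0.16 and 0.50 ± 0.16). Rnf139 in S vs NS lost its call without animal 2, 3 or 4 (edgeR adjusted p up to 0.139). Faf2 lost it without animal 2, 3 or 4 in S vs NS (up to 0.126) and without animal 3 or 4 in S_PI vs NS_PI (up to 0.0930).

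Of 16 tested genes of sterol uptake, storage and efflux, 3 rose and 3 fell in S vs NS, and 4 rose and 1 fell in S_PI vs NS_PI, beside 24.9% and 30.5% of all tested genes called. Abcg1, a sterol exporter and target of the oxysterol receptors LXR, averaged 261 ± 134 CPM in S and 129 ± 47.1 CPM in NS, and 264 ± 102 CPM in S_PI and 132 ± 42.3 CPM in NS_PI (SD, n = 5 each). It was higher in the stretched library of 5 of 5 animals in both (0.93 ± 0.16 and 0.94 ± 0.16). Mylip, an LXR target that directs lipoprotein receptors to degradation, rose by 0.99 ± 0.24 and 1.47 ± 0.23 on the log2 scale. Abca1, a further LXR target, was low (4.63 CPM in S, 4.79 CPM in NS) and did not pass (-0.20 ± 0.44 and 0.22 ± 0.45). The LXR genes Nr1h2 and Nr1h3 passed in neither comparison, and LXR activity was not tested. Lrp1, an endocytic receptor for remnant lipoproteins, rose by 0.73 ± 0.16 and 0.88 ± 0.16. Stard3, a sterol transfer protein of late endosomes, fell in both (-0.71 ± 0.16 and -0.68 ± 0.16). In S vs NS Ch25h, cholesterol 25-hydroxylase, changed by -1.52 ± 0.29 and Vldlr, the very low density lipoprotein receptor, by -0.88 ± 0.25, and without animal 2 the Vldlr call was lost at an adjusted p of 0.05001. With inhibitor neither passed, at -0.27 ± 0.32 for Ch25h (edgeR adjusted p = 0.552) and -0.23 ± 0.26 for Vldlr (adjusted p = 0.519). Ch25h averaged 17.7 CPM in NS and 7.56 CPM in NS_PI, and 5.73 CPM in S and 6.36 CPM in S_PI. Vldlr averaged 69.9 CPM in NS and 41.8 CPM in NS_PI, and 37.9 CPM in S and 36.3 CPM in S_PI. For none of the 16 genes did the difference between both stretch effects pass, so an inhibitor effect on Ch25h or Vldlr is not shown.

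Of 9 tested genes of the non-sterol isoprenoid branches, 1 fell in S vs NS and 1 rose in S_PI vs NS_PI. Both shares were below the 24.9% and 30.5% of all tested genes called. Pdss2, a subunit of the coenzyme Q side chain synthase, fell in S vs NS (-0.61 ± 0.22), a call lost without any 1 of the 5 animals (edgeR adjusted p of 0.0738 to 0.108). Ggps1, geranylgeranyl diphosphate synthase, rose in S_PI vs NS_PI (0.48 ± 0.16), a call lost without animal 1, 2 or 5 (up to 0.123). Of 13 further genes of fatty acid synthesis and activation 5 fell and none rose in S vs NS, and 5 fell and 1 rose in S_PI vs NS_PI, beside 12.4% and 15.3% of all tested genes falling. The largest falls in S vs NS were in Oxsm, a mitochondrial synthase (-1.42 ± 0.29), Acsl5, an acyl-CoA synthetase (-0.57 ± 0.12), and Hacd3, a dehydratase of chain elongation (-0.56 ± 0.13). With inhibitor Hacd3 changed by -0.82 ± 0.13 and Acsl5 by -0.57 ± 0.12, and Oxsm by -0.76 ± 0.28, a call lost without animal 1, 2, 3 or 4 (up to 0.179). Acsl4, an acyl-CoA synthetase that prefers arachidonate, rose in S_PI vs NS_PI (0.63 ± 0.13).

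Of 15 tested genes of glycerolipid and phospholipid synthesis 2 rose in S vs NS, and 1 rose and 1 fell in S_PI vs NS_PI, both shares below the 24.9% and 30.5% of all tested genes called. Cds1, a CDP-diacylglycerol synthase, had 0.96 ± 0.31 in S vs NS. Lpin2, a phosphatidate phosphatase, had 0.36 ± 0.13 and 0.48 ± 0.13, and Lpin3 had -0.99994 ± 0.34 in S_PI vs NS_PI. Each of these calls was lost without at least 1 animal, Cds1 without animal 2, 3 or 4 (edgeR adjusted p up to 0.0889), Lpin2 without 2, 3 or 4 in S vs NS (up to 0.205) and without 3 in S_PI vs NS_PI (0.0693), and Lpin3 without 1, 2, 3 or 4 (up to 0.109). Of 12 tested genes of fatty acid oxidation 1 rose in both comparisons, 1 fell in S vs NS and 2 fell in S_PI vs NS_PI, again below the share of all tested genes called. Cpt1a, which loads fatty acids onto carnitine for entry into mitochondria, rose by 0.90 ± 0.19 and 0.75 ± 0.19, higher in 5 of 5 animals in both. Cpt2, its partner on the inner membrane, changed by -0.98 ± 0.29 and -0.98 ± 0.29, and without animal 2 the call in S_PI vs NS_PI was lost at -0.59 (adjusted p = 0.102). Eci1, an enoyl-CoA isomerase, fell in S_PI vs NS_PI (-0.67 ± 0.18).

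**Figure D4:**
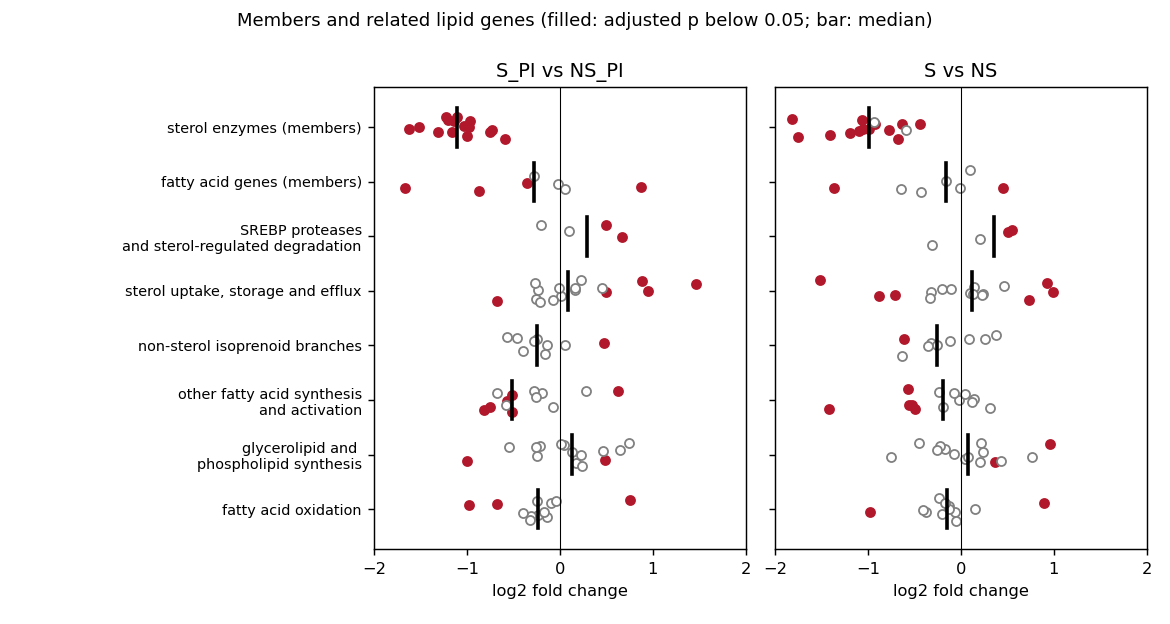
Fitted log2 fold changes (x axis) of the tested members and of related lipid genes, 1 point per gene, for S_PI vs NS_PI (left) and S vs NS (right); red points passed at an adjusted p below 0.05, open points did not, and black bars are list medians. The sterol enzyme points lie together at a median of -1.11 and -0.99, whereas every other list has its median between -0.51 and 0.36.

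In the authors' deposited table, 35 of the 36 genes had an entry and 27 had an adjusted p. Its header states neither the groups compared nor the direction, and it comes from the same libraries. Of the genes in the authors' deposited table, 10 had an adjusted p below 0.05, all with a positive log2 value, among them Fdft1 at 1.59, Hmgcs1 at 1.29 and Idi1 at 1.11. All 10 were among the 16 members called in S vs NS here.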

How the data were processed

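Raw read counts per gene symbol were deposited for 20 QuantSeq libraries. Per the submitters' processing notes, reads were aligned with STAR to the rat build rn6 and counted with HTSeq; the sources used here name no version, annotation or strand setting. Also deposited by the authors was a DESeq2 table that gives, per the file headers, the mean normalized count (a signal rather than a raw count), log2 fold changes and their standard errors, the Wald statistic (a score), and raw and adjusted p-values.

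HTSeq summary entries were left out. They were 16.2 to 24.5% of records per library for reads outside genes and 35.5 to 57.7% for reads aligned to several places. Counts were filtered with filterByExpr, scaled by TMM and tested with the quasi-likelihood F test of edgeR, fitted with terms for group and animal to all 20 libraries (12 residual degrees of freedom) and Benjamini-Hochberg adjustment over all 8320 tested genes. The labels tie each library to 1 animal, and the replicate number was taken as the animal: over 30 pairs of same-numbered libraries, deviations from group means correlated at 0.31 or more (median 0.47, against -0.17 between numbers). Standard errors are the absolute log2 change divided by the square root of F. SD and n refer to 5 animals per group. On simulated counts for S vs NS with 100 genes changed at each size, 89% of changes of 1 and 99% of changes of 1.5 on the log2 scale were called. Only 200 genes were changed there, all drawn from genes with a mean fitted count of at least 20. Hsd17b7, Acss2, Mvk, Scd and Tm7sf2 had fewer counts, so these shares do not cover them.

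Alternatives were other scaling (RLE, upper quartile, library size only), DESeq2, other filters, no animal block, only the groups compared, and leaving out each animal. Members, pathway lists and marker lists were chosen with earlier results of these data known. All members were named for the stretch comparisons. For the inhibitor, members that passed and the 3 largest changes among those of at least 10 CPM were named, and of related lists up to 3 called genes per direction. Scd2, Abca1, Nr1h2 and Nr1h3 were named in addition. Promoter sequences and gene overlaps are from RefSeq, build GRCr8, used for letters and neighbours only. Software was edgeR 4.0.16, DESeq2 1.42.0 and limma 3.58.1 under R 4.3.3, with pandas 2.3.3 and matplotlib 3.10.9 under Python 3.11.15.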

Additional observations from a re-analysis of the deposited data

Results flagged for a closer look

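In 8 of the 108 group and gene combinations of 5 libraries, 1 library stood apart from the other 4 by more than the 95% limit of Dixon's test, which chance gives in about 1 of 20. In NS_PI, Mvk was 20.7 CPM in animal 5, against 9.54 to 12.04 CPM in the other animals. Fdft1 was 129.9 CPM in NS_PI animal 2, against 96.1 to 105.5 CPM in the others. In NS_PI animal 3, Sqle was 196.9 CPM, against 253.9 to 265.2 CPM in the others, and Sc5d was 134.9 CPM, against 200.02 to 212.2 CPM. Srebf1 was 45.1 CPM in NS animal 3, against 27.01 to 31.1 CPM in the others. Me1 was 446.6 CPM in S_PI animal 1, against 226.5 to 288.5 CPM in the others, and 469.2 CPM in S animal 1, against 234.6 to 268.3 CPM. Scd was 9.70 CPM in S_PI animal 1, against 1.52 to 3.49 CPM in the others. Without the animal concerned, the calls of Mvk, Fdft1, Sqle, Sc5d and Scd in S_PI vs NS_PI were kept.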

How the results depend on the processing

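The animal block decided how many genes passed. Without the replicate block 818 genes instead of 2075 were called in S vs NS and 1229 instead of 2534 in S_PI vs NS_PI, and 11 and 14 members instead of 16 and 20. With only the groups compared in the fit, which leaves fewer libraries to estimate the spread, 1048 genes and 10 members were called in S vs NS. In NS_PI vs NS, where the full fit called none, DESeq2 called 4 genes, no filter on low counts 4, only the groups compared 27, and leaving out each animal 0 to 3 (3 without animal 1); no member was among the calls in any setting. Leaving out each animal gave 1418 to 1784 genes and 13 to 16 members in S vs NS, and 1839 to 2453 genes and 16 to 18 members in S_PI vs NS_PI. Scaling by library size alone shifted the median of all genes to -0.12 in both stretch comparisons, with 722 rises and 1425 falls in S vs NS and 957 and 1677 in S_PI vs NS_PI, against 1044 and 1031, and 1263 and 1271, with TMM. Upper-quartile scaling gave 854 and 1233, and 1030 and 1612. Under these scalings 16 members fell in S vs NS and 19 in S_PI vs NS_PI, and Acsl3 lost its S vs NS call with library size alone (edgeR adjusted p = 0.0844).

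The members whose sign changed were Fasn, Scap, Insig1, Srebf1 and Me1, and none of these passed in S vs NS or S_PI vs NS_PI in any setting. In S vs NS, Fasn was -0.016 with library size only and -0.020 to 0.24 without each animal, Scap -0.0063 with library size only, Insig1 -0.58 to 0.065 and Srebf1 -0.37 to 0.017 without each animal. Me1 in S vs NS was 0.010 with RLE scaling, 0.012 with DESeq2, 0.011 with a filter of 5 CPM in 5 libraries, 0.025 without the block, and -0.092 to 0.080 without each animal. In S_PI vs NS_PI, Fasn was -0.085 to 0.086, Insig1 -0.52 to 0.19, Srebf1 -0.012 to 0.23 and Me1 -0.036 to 0.10 without each animal, and Me1 -0.021 with upper-quartile and -0.042 with library size scaling. The cause of these shifts was not tested. All 15 sterol enzymes were below 0 in every setting that gave them a value. At the depth of these libraries 9 members could not be tested, and Hsd17b7, Scd, Tm7sf2, Acss2 and Mvk rest on few counts. P-values rest on the spread between libraries that remains after the terms for group and animal, not on the full spread between animals.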
